A study of Mus musculus with 18 samples.

Results

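The urea cycle disposes of nitrogen released when the liver breaks down amino acids. Binding of the circadian transcription factor BMAL1 was examined around 10 genes of the cycle and of the enzymes that feed it: Nags, Cps1, Otc, Ass1, Asl and Arg1 of the cycle, the aminotransferase genes Tat, Got1 and Gpt, and Glul, which encodes glutamine synthetase. The genes were chosen by name and with earlier results of these data known, out of 21887 protein-coding genes in the gene table used. A binding site was counted for a gene when the centre of a peak lay inside the gene or within 50 kb of either end. By this rule 26 peaks were found at 9 of the 10 genes. There were 15 among the 4813 peaks of the liver list, 9 among the 4034 of the kidney list and 2 among the 2519 of the heart list.

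The peaks came from chromatin immunoprecipitation with sequencing (ChIP-seq) of heart, kidney and liver tissue. The animals were wild type C57BL/6 mice aged 3 to 6 months, entrained to 12 h light and 12 h dark with free access to food. The same 3 mice gave all of the tissues, 6 h after lights on. For each tissue there were 3 BMAL1 ChIP libraries and 3 input libraries, 18 in all. All groups shared genotype, strain and time of day, so the tissue was the variable compared. The authors pooled the ChIP and input libraries of a tissue into 1 peak list, so no value below has a spread between animals, no test between tissues was possible, and the read depth behind a peak is unknown. The input libraries titled heart carry a source label that names kidney, and whether this bears on the heart list was not tested. In chromatin of whole tissue, strong binding in few cells and weak binding in many cannot be told apart.

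BMAL1 pairs with CLOCK and binds DNA at E-boxes, short motifs of which CACGTG is the canonical form. The pair drives daily rhythms of its target genes and is known to be bound to DNA in the daytime in mouse liver. Hepatocytes near the portal vein hold the full urea cycle, whereas those around the central vein make glutamine with Glul. The kidney holds parts of the cycle, since Ass1 and Asl of the proximal tubule make arginine for the rest of the body.

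Each peak carries a whole-number score from the authors whose scale is not given in the sources used here. Ranks are therefore given within a list, with rank 1 for the highest score and tied peaks sharing the lowest rank number. The median score of the liver list was 40, that of the kidney list 28 and that of the heart list 25. At the 10 genes the 15 liver scores had a median of 43 and lay between 22 and 139. The 9 kidney scores had a median of 31 and lay between 16 and 117, and the 2 heart scores were 26 and 94.

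Liver sites were present at 8 of the 10 genes, which were Cps1, Ass1, Asl, Arg1, Nags, Tat, Got1 and Gpt. Among all protein-coding genes, 34.0% had a liver peak by the same rule. Kidney sites were present at 4 of the 10, which were Ass1, Nags, Gpt and Glul, beside 33.1% of all protein-coding genes. Heart sites were present at 2 of the 10, Gpt and Glul, beside 22.7% of all protein-coding genes. The liver count thus stood above its background share, whereas the kidney and heart counts were near theirs. Sites in the liver list alone were found at 5 genes (Cps1, Asl, Arg1, Tat and Got1), a pattern that 8.98% of all protein-coding genes had. Ass1 and Nags had liver and kidney sites only (background 10.9%), Glul kidney and heart sites only (3.08%), and Gpt sites in every list (11.0%). Otc had no site in any list, as did 49.3% of all protein-coding genes. Within 10 kb of the gene, 6 of the 10 had a liver site, 3 a kidney site and 2 a heart site, beside 18.1%, 18.0% and 11.5% of all protein-coding genes. These shares stood above the background in each list, but the kidney and heart intervals (6.67 to 65.2% and 2.52 to 55.6%) contained it.

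A 50 kb window also takes in peaks that lie closer to another gene. For 14 of the 26 peaks the nearest protein-coding gene was the urea cycle or amino acid gene itself, and for 12 it was a neighbour. Counting only the former left 6 of the 10 genes with a liver site, 3 with a kidney site and 2 with a heart site. The background shares on this count were 15.0%, 14.2% and 9.66%. Each count stood above its background, but the kidney and heart intervals (6.67 to 65.2% and 2.52 to 55.6%) contained it. Asl and Nags lost all their sites, and Ass1 and Gpt kept some of theirs. The peak farthest inside the window lay 49.2 kb from Asl, with score 22 in liver, and the nearest beyond it lay 54.6 kb from Got1, with score 18 in liver.

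**Figure D1:**
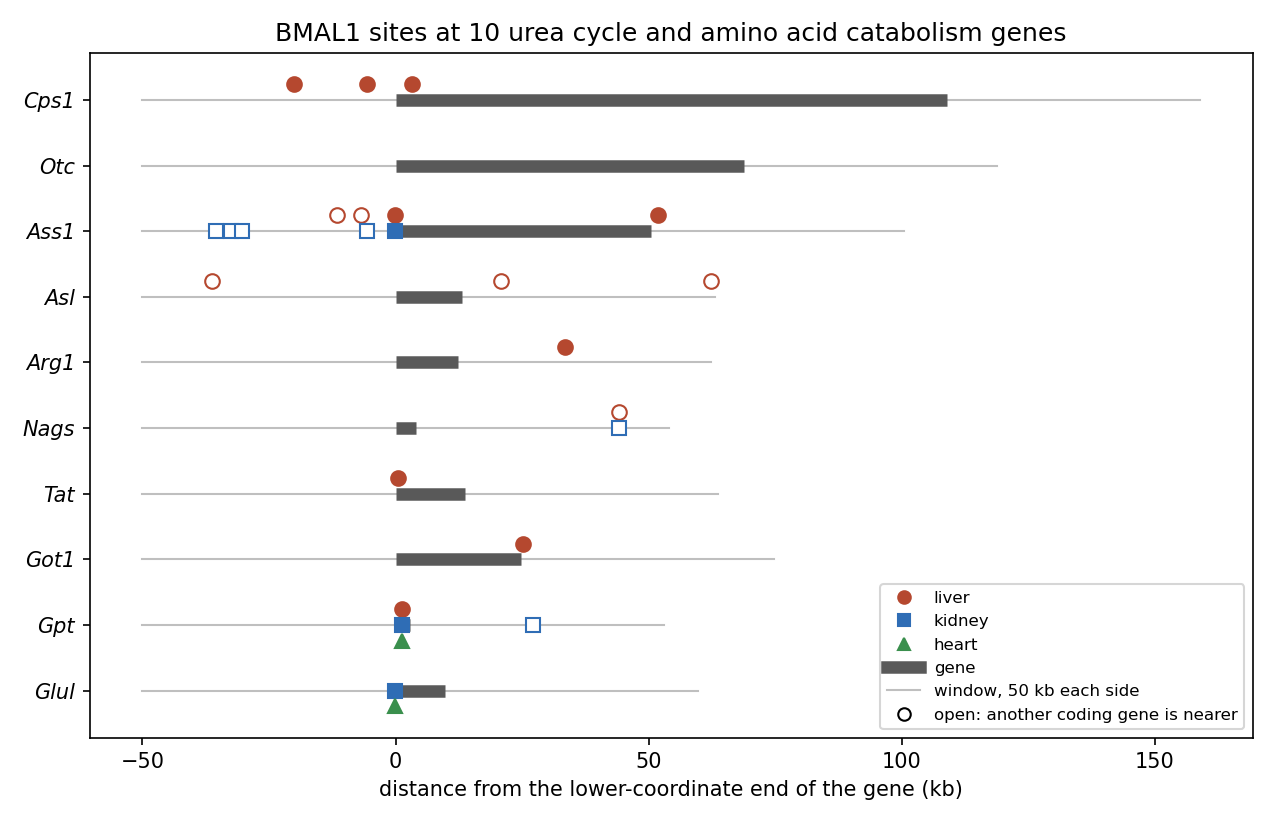
Position of every BMAL1 peak at the 10 genes, in kb from the end of the gene with the lower coordinate; dark bars are genes, thin lines are windows that reach 50 kb to each side, and symbols mark liver, kidney and heart peaks, shifted vertically for sight. Open symbols are the 12 peaks that lie closer to another protein-coding gene; Otc has no symbol, and 4 clusters of overlapping symbols at Ass1, Nags, Gpt and Glul are sites shared between tissues.

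The 26 peaks merged into 21 regions when peaks that overlapped by at least 1 bp were joined. Of these regions 4 held peaks of more than 1 tissue (19.0%, exact Clopper-Pearson 95% interval 5.45 to 41.9%, counting error only), beside 20.5% of all 9005 merged regions. Sharing at these genes was thus near the background. The shared regions were at Gpt (all 3 lists), at Ass1 and near Nags (liver and kidney) and at Glul (kidney and heart). Their peak centres lay close together, 19 bp apart at most at Gpt, 33 bp at Ass1, 7 bp near Nags and 9 bp at Glul. The 17 regions of a single tissue were 12 of liver and 5 of kidney, and 10 of the 17 were closer to another protein-coding gene.

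The first steps of the cycle take place in mitochondria. Nags makes N-acetylglutamate, the activator of carbamoyl phosphate synthetase, which Cps1 encodes and which commits ammonia to the cycle. Otc encodes ornithine transcarbamylase, which makes citrulline. Cps1 (chromosome 1, 67122426 to 67231267) stood alone in its window and had 3 peaks, all in the liver list only. The highest lay 5.73 kb beyond the lower end of the gene (67116580 to 67116821) with score 52 at rank 1645 of 4813. A peak 20.1 kb beyond the same end had score 26 at rank 3576, and a peak 3.21 kb inside the gene had score 25 at rank 3702. Only the highest of the 3 scored above the liver median of 40.

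Near Nags (chromosome 11, 102145513 to 102149528) a single region was bound, 40.1 kb beyond the upper end. Its score was 69 at rank 1035 in liver (102189470 to 102189711) and 70 at rank 449 in kidney (102189504 to 102189691). These peaks lay at the start of G6pc3, with centres 109 and 102 bp from it. G6pc3 encodes a glucose-6-phosphatase found in many tissues, and it is 1 of 6 protein-coding genes other than Nags that lie at least partly in the window. Nags itself had no peak within 10 kb. Otc (chromosome X, 10252230 to 10321024) had no peak within 50 kb, nor within 100 kb.

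The later steps take place in the cytosol. Ass1 encodes argininosuccinate synthetase, Asl the lyase that releases arginine, and Arg1 the liver arginase that splits arginine into urea and ornithine. Ass1 (chromosome 2, 31470270 to 31520670) held the most sites of the 10 genes, 4 in liver and 5 in kidney, in 8 regions. The region at its start was bound in liver and kidney. In liver the peak (31470017 to 31470258) had score 112 at rank 342 of 4813, with its centre 133 bp before the start. In kidney the peak (31470077 to 31470264) had score 60 at rank 604 of 4034, with its centre 100 bp before the start. The heart list had no peak in the window.

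The other Ass1 sites differed between liver and kidney. Liver-only peaks lay 11.6 kb and 6.82 kb before the start (scores 43 and 44, ranks 2127 and 2062) and 1.36 kb beyond the far end (score 22, rank 4095). Kidney-only peaks lay 35.5, 32.5 and 30.4 kb before the start, inside the neighbour Hmcn2, with scores 117, 27 and 21 at ranks 132, 2045 and 2742. A further kidney-only peak lay 5.57 kb before the start, with score 17 at rank 3323. All these peaks but that beyond the far end lay inside Hmcn2 or closer to it than to Ass1. The kidney peak at rank 132 was the best-ranked site of all 26, and it lies inside the gene for hemicentin 2, an extracellular matrix protein.

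Asl (chromosome 5, 130011258 to 130024381) had 3 liver-only peaks, each inside a neighbouring gene. The peak inside Vkorc1l1 had score 34 at rank 2780, the peak inside Crcp had score 24 at rank 3823, and the peak inside Tpst1 had score 22 at rank 4095. All 3 scored below the liver median. The Crcp peak was the closest to Asl, 7.73 kb beyond its upper end. Arg1 (chromosome 10, 24915207 to 24927470) had 1 peak, in liver only, 21.1 kb beyond the upper end of the gene (24948491 to 24948732). It had score 115 at rank 314 of 4813, and Arg1 was the protein-coding gene nearest to it. Its rank was better than that of the liver peak at the Ass1 start, at rank 342.

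Aminotransferases pass nitrogen from amino acids on to glutamate or aspartate. Tat encodes the tyrosine aminotransferase of liver, Got1 the cytosolic aspartate aminotransferase and Gpt an alanine aminotransferase. Gpt (chromosome 15, 76696726 to 76699675) was the only gene of the 10 with a site in every list. The liver peak (76697868 to 76698109) had score 139 at rank 197 of 4813. In kidney (76697913 to 76698100) the score was 96 at rank 222 of 4034. In heart (76697889 to 76698086) it was 94 at rank 159 of 2519. The region lay inside the gene in all 3 lists, about the middle of its 2.95 kb, and within the top 10% of each list. The Gpt window is crowded, with 10 other protein-coding genes, and a kidney-only peak 24.2 kb away lay 9 bp from C030006K11Rik (score 31, rank 1729).

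Got1 (chromosome 19, 43499752 to 43524605) had 1 peak, in liver only (43524795 to 43525036), with score 61 at rank 1293. Got1 lies on the minus strand, and the centre of the peak was 310 bp before its start. Tat (chromosome 8, 109986078 to 109999804) also had 1 liver-only peak (109986467 to 109986708), with score 26 at rank 3576. Tat lies on the plus strand. The centre of its peak lay 509 bp inside the start of the gene as annotated, but 3849 bp before the transcript start in the promoter table. The Got1 peak near the start was thus listed in liver and not in kidney or heart, and the Tat peak was below the liver median in score.

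Glutamine synthetase, the product of Glul, captures ammonia that the cycle leaves. Glul (chromosome 1, 153899929 to 153909723) had peaks in the kidney and heart lists and none in the liver list within 50 kb. The heart peak (153899707 to 153899904) had score 26 at rank 1184 of 2519, close to the heart median of 25. The kidney peak (153899703 to 153899890) had score 16 at rank 3480 of 4034, in the lower part of its list. The centres lay 124 and 133 bp before the Glul start, and 29 and 20 bp from the start of Gm38440, which is transcribed from the opposite strand. The nearest liver peak was 81.3 kb from Glul, with score 51 at rank 1693 of 4813. Glul was the protein-coding gene nearest to it, so the lack of a liver site at Glul depends on the 50 kb limit.

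**Figure D2:**
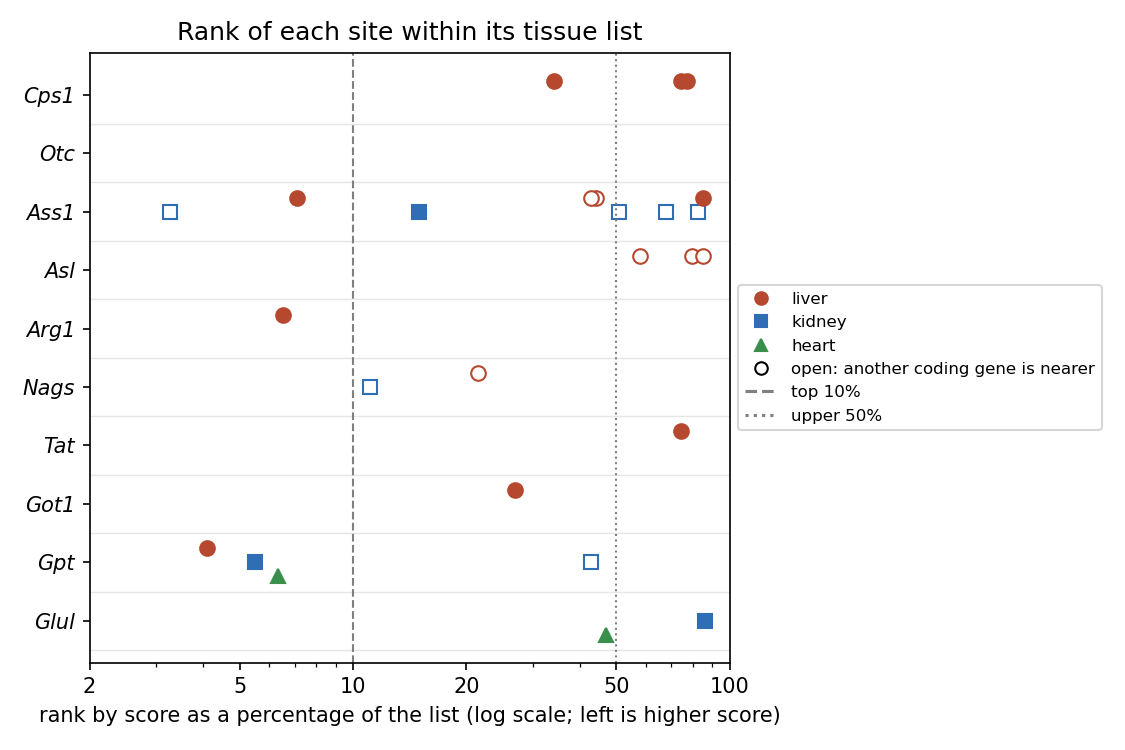
Rank of each of the 26 peaks by score, as a percentage of its own list on a log axis, so that high scores lie to the left; the dashed line marks the top 10% and the dotted line the upper 50%. Gpt lies left of the dashed line in liver, kidney and heart; Ass1 and Arg1 do so in liver, and an Ass1 peak closer to Hmcn2 (open symbol) in kidney.

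Peaks of high score were set beside the background in the same way. A site of the top 10% of the liver list lay at 3 of the 10 genes (Gpt, Arg1 and Ass1), beside 5.88% of all protein-coding genes. In kidney it was 2 of 10 (Ass1 and Gpt) beside 5.41%, and in heart 1 of 10 (Gpt) beside 3.33%. Ass1 was counted in kidney only for the peak inside Hmcn2. The kidney peak at the Ass1 start, at rank 604 of 4034, was outside the top 10%. Among the genes with a liver peak in the window, the median best rank was 1606. Gpt, Arg1, Ass1, Nags and Got1 ranked better than that in liver, and Cps1, Asl and Tat ranked worse. In kidney the median best rank was 1408, with Ass1, Gpt and Nags better and Glul worse. The best kidney rank of Ass1 is again that of the peak inside Hmcn2. The ranks of Nags in liver and kidney are those of the peaks at the G6pc3 start. In heart it was 970, with Gpt better and Glul worse.

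Sequence before the start was available for 6 of the 10 genes in the RefSeq promoter table (GRCm38.p6): Ass1, Glul, Got1, Nags, Otc and Tat. Cps1, Asl, Arg1 and Gpt were not among them. The 250 bases before the start are shown for the 3 genes bound there, Ass1 (chr2:31470020-31470269, plus strand), Glul (chr1:153899679-153899928, plus strand) and Got1 (chr19:43524606-43524855, minus strand). G6pc3 (chr11:102189449-102189698, plus strand) is added because the peaks near Nags lie on it, a choice made after its values were seen. Capitals mark CANNTG, the general E-box, of which CACGTG is the canonical form.
Ass1: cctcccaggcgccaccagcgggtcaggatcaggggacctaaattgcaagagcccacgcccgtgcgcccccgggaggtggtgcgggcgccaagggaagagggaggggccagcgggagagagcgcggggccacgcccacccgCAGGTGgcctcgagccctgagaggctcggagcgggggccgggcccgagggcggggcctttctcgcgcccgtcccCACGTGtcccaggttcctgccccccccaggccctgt
Glul: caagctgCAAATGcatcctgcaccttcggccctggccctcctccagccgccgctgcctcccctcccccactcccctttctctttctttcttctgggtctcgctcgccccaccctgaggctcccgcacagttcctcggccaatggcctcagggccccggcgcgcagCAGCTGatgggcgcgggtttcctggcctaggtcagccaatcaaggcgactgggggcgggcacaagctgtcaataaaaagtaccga
Got1: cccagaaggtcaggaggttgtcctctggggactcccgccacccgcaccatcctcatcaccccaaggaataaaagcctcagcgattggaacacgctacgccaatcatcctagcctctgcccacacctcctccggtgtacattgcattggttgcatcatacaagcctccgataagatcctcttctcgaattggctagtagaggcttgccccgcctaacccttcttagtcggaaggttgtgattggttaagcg
G6pc3: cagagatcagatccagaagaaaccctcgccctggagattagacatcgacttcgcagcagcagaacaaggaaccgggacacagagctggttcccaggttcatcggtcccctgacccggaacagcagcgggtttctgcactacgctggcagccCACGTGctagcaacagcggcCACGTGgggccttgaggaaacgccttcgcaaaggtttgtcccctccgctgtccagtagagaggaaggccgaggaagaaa

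The bound promoters differed in their E-box letters. The Ass1 promoter held CACGTG once, 36 bp before the start (counted to the first base of the match), inside the liver and kidney peaks and 99 and 66 bp from their centres. It also held a CAGGTG 110 bp before the start, 25 bp from the liver centre and 8 bp from the kidney centre. The G6pc3 promoter held CACGTG at 2 places, 99 and 79 bp before the start, and both lay inside the liver and kidney peaks, the nearer one 12 bp from the liver centre and 5 bp from the kidney centre. The Glul promoter held no CACGTG. Inside its kidney and heart peaks was a CAGCTG 85 bp before the start, 50 and 41 bp from their centres. No CANNTG was found in the Got1 promoter, but only 61 of the 242 bp of the liver peak fell in this window, so most of that peak was not searched.

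These letters were then counted over all 32851 promoters of the table, each of 300 bp from 250 bp before the start to 50 bp after it, on both strands. CACGTG was held by 7.15% of them. Of promoters overlapped by a liver peak 38.5% held it (404 of 1048), by a kidney peak 35.8% (487 of 1360) and by a heart peak 34.4% (239 of 695), beside 5.52% of promoters overlapped by no peak. The relaxed form CACGNG, which includes CACGTG, was held by 27.5% of all promoters and by 76.4, 76.6 and 73.8% of those overlapped in liver, kidney and heart, beside 24.5% of those overlapped by no peak. CANNTG, which also includes CACGTG, was held by 72.3% of all promoters, by 74.1, 73.2 and 71.4% of the overlapped ones and by 72.4% of the rest, so its share was nearly the same with and without a peak. Of the 6 promoters from the list of 10 genes, only that of Ass1 held CACGTG. Besides CACGTG, the Ass1 promoter held another match to CACGNG, the letters CCCGTG 193 bp before the start (CACGGG on the other strand). It lay inside the liver and kidney peaks, 58 and 91 bp from their centres. The Tat promoter, which no peak overlapped, held a match to CACGNG, and those of Glul, Got1, Nags and Otc held none. The Ass1 promoter was rich in G and C (74.0%, beside a median of 52.7% over all promoters), as was that of Glul (64.3%), and the part of base composition in these shares was not tested.

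A wider list of 46 other genes of amino acid metabolism was counted in the same way, and all 46 matched the gene table. A liver site lay at 36 of them (78.3%, exact 95% interval 63.6 to 89.1%), beside the 34.0% of all protein-coding genes. A kidney site lay at 30 (65.2%, 49.8 to 78.6%) beside 33.1%, and a heart site at 13 (28.3%, 16.0 to 43.5%) beside 22.7%. When only the gene nearest to a peak counted, liver sites were left at 24 genes, kidney sites at 15 and heart sites at 5, beside background shares of 15.0, 14.2 and 9.66%. Of the 46 genes, 10 had sites in all 3 lists (21.7%, beside 11.0% of all protein-coding genes), 16 in the liver and kidney lists only (34.8%, beside 10.9%) and 9 in the liver list only (19.6%, beside 8.98%). The other patterns were near or below their background, with 4 genes in the kidney list only (8.70%, beside 8.09%), 2 in the heart list only (4.35%, beside 5.55%) and 1 in the liver and heart lists only (2.17%, beside 3.04%). No site was listed at 4 genes, Arg2, Asns, Dbt and Kynu (8.70%, beside 49.3%). Neighbouring genes can share a peak, and intervals treat genes as independent. The wider list too was chosen with earlier results of these data known, so its shares are descriptions.

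**Figure D3:**
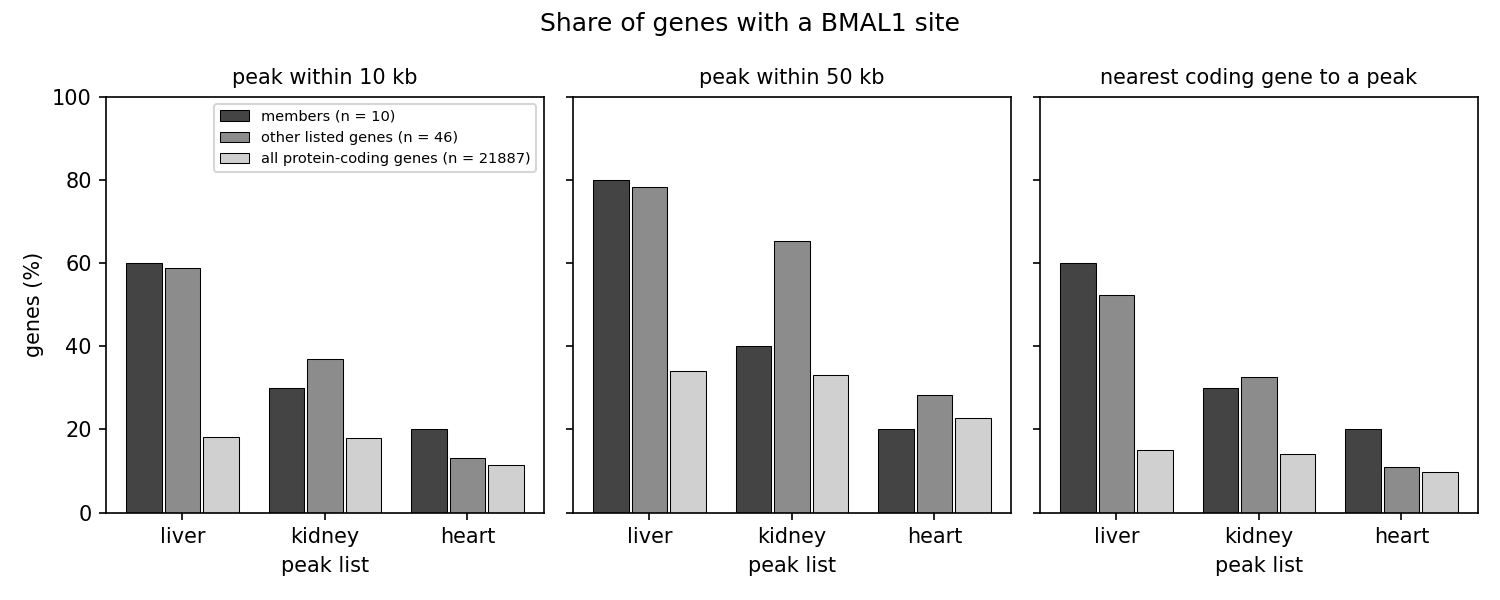
Percentage of genes with a BMAL1 site in the liver, kidney and heart lists for the 10 genes described here (dark), 46 other genes of amino acid metabolism (grey) and all 21887 protein-coding genes (light); panels count peaks within 10 kb, within 50 kb, or only for the protein-coding gene nearest to the peak. In liver the dark and grey bars stand at 60.0 and 58.7% within 10 kb, beside 18.1% for all genes; in heart within 50 kb they stand at 20.0 and 28.3%, beside 22.7%.

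The best-ranked liver sites of the wider list were at Shmt1 (score 160, rank 112), which encodes a serine hydroxymethyltransferase, at Agmat (score 150, rank 152), whose product splits agmatine, and at Odc1 (score 136, rank 208), which makes putrescine from ornithine. Next came a peak inside the windows of Sds and Sdsl, the serine dehydratase genes, with score 123 at rank 263. That peak was shared by all 3 lists and was closest to Plbd2. In kidney the best-ranked sites were the same Sds and Sdsl region (score 94, rank 236), then sites in the windows of Amt (score 93, rank 241, closest to Usp4) and Agmat (score 92, rank 245, closest to Dnajc16), and at Shmt1 (score 75, rank 392). In heart the Sds and Sdsl region (score 99, rank 146) was followed by the Agmat window (score 82, rank 210, closest to Dnajc16), Odc1 (score 56, rank 405) and the Glud1 window (score 55, rank 414, closest to Fam25c). Of these, the Shmt1 and Odc1 sites and the liver Agmat site had the named gene as their nearest protein-coding gene.

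The carriers that link the mitochondrial and cytosolic steps, and the paralogs of the 10 genes, are named here for their place in the pathway and not by the rule on rank. Slc25a13, the aspartate and glutamate carrier, had a region inside the gene that was shared by all 3 lists, with score 110 at rank 362 in liver, 46 at rank 972 in kidney and 51 at rank 464 in heart. Its centres lay 56, 64 and 2 bp from the start. Slc25a15, the ornithine carrier, had a single peak, in kidney, with score 38 at rank 1295 and a centre 84 bp from the start. Got2, the mitochondrial partner of Got1, had its best-ranked liver peak inside the gene with score 39 at rank 2408, and Got1 ranked better at 1293. Gpt2, the mitochondrial partner of Gpt, had a liver peak 3.77 kb outside the gene (score 56, rank 1480) and in its window a kidney peak 33.4 kb outside the gene, closest to 4921524J17Rik (score 14, rank 3802). Arg2, the second arginase, had no site. For each of these 3 pairs, the member from the list of 10 had the better-ranked liver site, or the only one.

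Genes with ranks most like those of Ass1 were sought among the 2390 other protein-coding genes that had liver and kidney but no heart sites and shared none of its peaks. Likeness was the largest absolute difference in log2 best rank over the 2 lists. Atxn3, Cpsf2, Ndufb1 and Trip11 tied at 0.12, with best ranks of 314 in liver and 129 in kidney, equal for all 4. The kidney rank of Ass1 is that of the peak inside Hmcn2. The same measure for Gpt, added after its values were seen, put Fnip1 and Meikin closest, at 0.07, with ranks of 200 in liver, 222 in kidney and 151 in heart. Neighbouring genes can share a peak, so genes with equal ranks need not be separate likenesses. These likenesses rest on 2 or 3 lists and are descriptions.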

How the data were processed

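BMAL1 ChIP-seq was done on liver, kidney and heart, with 18 libraries grouped by their titles. Per the series' design text, the authors pooled the ChIP and input replicates of each tissue to make its peak list. Per the submitters' processing notes, Bowtie2, SAMtools and HOMER were used with build mm10; the sources used here give no settings or thresholds. The deposited score of each peak is a whole number of unstated scale, used only within a list. A more deeply read or better enriched pool can give a longer list, so counts of sites between tissues cannot be told apart from sensitivity.

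Genes came from RefSeq GRCm38.p6, the same build as mm10, and promoter sequences from a table of 32851 promoters of that build. The table is not complete. In 536 of 536 overlaps of at least 50 bp checked between opposite strands the letters were reverse complements. A peak was placed by its centre, counted from 1. Shared peaks overlapped by at least 1 bp. The top 10% holds peaks whose rank is at most 10% of the list size. Intervals, where given for a share, are exact Clopper-Pearson 95% intervals for counting error. No test was made, since no list has replicates. Counting was done with Python 3.11.15, pandas 2.3.3 and scipy 1.17.1, and the window, rank and merging steps were tested on simulated peaks.

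The 10 genes were named with every site in their windows. Of the wider list of 46, up to 5 genes per list with the highest scores were named, and the genes nearest in rank to the member with the best rank (3, plus ties). For each site the nearest protein-coding gene was named where it was not a member. The members and lists were chosen with earlier results of these data known. Alternatives were windows of 10 and 100 kb, the upper 50% of each list by score, the nearest gene only, other rules for sharing, and mean ranks for ties.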

Additional observations from a re-analysis of the deposited data

How the results depend on the processing

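The number of genes with a site kept within 1.5 times the main count in each list under each alternative tried. It was 6 to 9 of the 10 genes in liver (8 as reported), 3 to 5 in kidney (4) and 2 in heart throughout. The background moves with the window. Within 100 kb, 9, 5 and 2 of the 10 genes had a liver, kidney and heart site. Of all protein-coding genes, 46.3, 44.9 and 33.4% did. The kidney share was then near the background and the heart share below it. The number of sites moved more than the number of genes. With a 10 kb window there were 9 sites in liver and 4 in kidney, with peaks at or above the median score 8 and 5, and with only the nearest protein-coding gene counted 9 and 3, against 15 and 9 as reported. Narrowing the window, the score range or the assignment leaves fewer peaks by construction. Regions shared between tissues numbered 3 or 4. The best rank in kidney was 222, at Gpt, in place of 132 when the window was 10 kb or only the nearest gene counted (the latter chosen after seeing the data). Mean ranks for ties gave best ranks of 198 in liver, 134 in kidney and 160 in heart, against 197, 132 and 159. Of the 46 other genes, 17 had a kidney site and 6 a heart site within 10 kb, against 30 and 13. Within 10 kb the shares were 37.0 and 13.0% of the 46 genes, beside 18.0 and 11.5% of all protein-coding genes. No paired analysis was possible because replicates were pooled in each list, and for the same reason no replicate could be left out. Without read depth, a site missing from a list is not shown to be unbound.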
